A study of Mus musculus with 6 samples.

Results

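Expression of 38 mouse Hox genes was examined in endothelial cells sorted from the skin of wild-type and APJ knockout mice. APJ is a cell-surface receptor that binds apelin. The genes were taken by name alone. A probe belonged to the set if its RefSeq accession mapped to a listed symbol, which gave 41 probes for 38 genes, among 20018 named genes on the array. Of the 38, 10 lie in the Hoxa cluster on chromosome 6, 10 in the Hoxb cluster on chromosome 11, 9 in the Hoxc cluster on chromosome 15 and 9 in the Hoxd cluster on chromosome 2. Hoxa9, Hoxa13 and Hoxb3 had more than 1 probe, and the brightest probe on average stands for each gene.

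There were 3 wild-type and 3 APJ knockout samples, each labelled as coming from a separately numbered mouse of strain C57Bl/6J and each hybridised to its own one-colour array. The endothelial cells were isolated by fluorescence-activated sorting without later treatment. Neither the cells in which the receptor was deleted, nor the sort markers, the age of the mice or the region of skin is given in the labels, although the names of the deposited files carry an embryonic stage. P-values describe the spread among 6 samples alone, and having 3 arrays per group limits how precise any value can be. Levels are log2 signals relative to the 75th percentile of intensity of the same array, so 0 marks that percentile.

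Hox genes encode homeodomain transcription factors that give cells their position along the body axis. Within each cluster the genes are arranged by paralogue number, and low numbers are generally active further towards the head and high numbers further towards the tail or the ends of the limbs. Fibroblasts of skin are known for Hox patterns that reflect where in the body they lie, and in endothelium several Hox proteins are known as regulators of vessel growth. Hox proteins bind DNA together with Pbx and Meis cofactors, and Polycomb and trithorax complexes keep the clusters silent or active.

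Aplnr, the gene for APJ on chromosome 2, averaged 3.65 ± 0.26 over wild-type arrays and 1.95 ± 0.28 over knockout arrays (SD, n = 3 each), with every knockout array below every wild-type array (limma adjusted p = 0.0236). The position of its probe relative to the deletion is not known here. The call was lost when replicate number was a block (0.0786) and in 5 of the 6 fits that left out 1 array, that without APJ knockout replicate 3 being the exception. Each array had 50.31% to 57.98% of its probes well above background by the scanner software's own call. All 15 pan-endothelial markers were well above background on all 6 arrays, with a summed linear signal of 1150 to 1260 times the 75th percentile in wild type and 1190 to 1290 in the knockout. The arrays lay on 2 slides, scanned separately, with replicates 1 and 2 of both genotypes on slide 1 and replicate 3 of both on slide 2.

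By the well-above-background call, the sorted cells expressed a contiguous block of Hoxa, Hoxb and Hoxd genes and almost no Hoxc. The block's edges and the Hoxc count depend on that call. By the scanner software's less strict positive-and-significant call, Hoxa10, Hoxd1, Hoxd11, Hoxc4, Hoxc5, Hoxc6 and Hoxc12 were also present on all 6 arrays. In all, 20 of the 38 genes (52.6%) were well above background on all 6 arrays, 8 on some and 10 on none. Over all named genes on the array 65% were well above background on all 6 and 24.9% on none. On single arrays 20, 21 and 23 members were called in wild type and 22, 22 and 26 in the knockout. By cluster, the genes present on all 6 arrays numbered 7 of 10 in Hoxa, 8 of 10 in Hoxb, 5 of 9 in Hoxd and 0 of 9 in Hoxc. Within Hoxa, Hoxb and Hoxd, all 19 genes with paralogue numbers 2 to 9 were well above background on all 6 arrays, whereas of the 8 genes numbered 10 to 13 only Hoxd10 was.

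**Figure D1:**
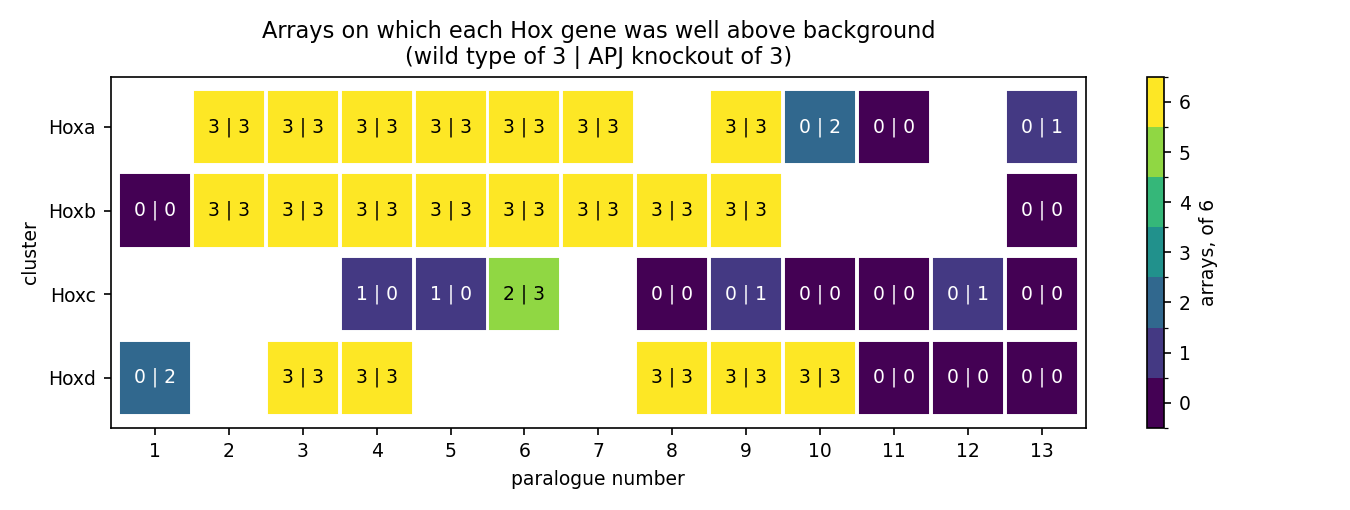
Number of arrays on which each Hox gene was well above background, by cluster (rows) and paralogue number (columns), with the count of 3 wild-type arrays to the left of the bar and of 3 APJ knockout arrays to the right. Colour gives the total of 6 arrays, and a blank square is a number for which no gene was analysed. Genes numbered 2 to 9 of Hoxa, Hoxb and Hoxd fill a block of 6 of 6 arrays, and no Hoxc gene reaches 6.

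At the low-numbered end, Hoxb1, a gene of the hindbrain, was called on none of the arrays, and its 10 replicate spots averaged between -7.16 and -6.34. Hoxd1 was well above background on 2 of 3 knockout arrays and on 0 of 3 wild-type arrays. Its wild-type signals were -5.96, -5.06 and -5.73, and its knockout signals -3.82, -4.42 and -4.75. The calls came from replicates 1 and 3. The groups did not overlap. Against each wild-type array's lowest signal called well above background, or the gene's signal there if higher, the knockout mean was 1.35-fold higher. That mean includes APJ knockout replicate 2, which was not well above background, so 1.35 is not a strict bound. Such a value is a bound only where every array of the brighter group is well above background. It comes from group means alone and carries no error.

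At the high-numbered end the 3 clusters stopped at different genes by the well-above-background call. In Hoxb the last gene present was Hoxb9, and Hoxb13 lay between -7.18 and -6.29, never well above background. In Hoxd the last was Hoxd10, which read -0.45, -0.18 and -0.46 in wild type and -0.33, -0.42 and -0.50 in the knockout. Hoxd11, Hoxd12 and Hoxd13, genes of the limb ends and genital region, were well above background on no array. The signal of the single Hoxd12 probe ran from -7.40 to -6.50, near the floor of every array.

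In Hoxa the last gene present on all arrays was Hoxa9, and Hoxa10 was at the edge of detection. Hoxa10, which acts in the limb and the urogenital tract, read -5.16, -5.51 and -5.02 in wild type, where no array was well above background, and -4.78, -3.80 and -4.43 in the knockout, where replicates 2 and 3 were. The knockout arrays all lay above the wild-type arrays. The ratio computed as for Hoxd1 was 1.29-fold, and its knockout mean includes replicate 1, which was not well above background. Hoxa11 was well above background on no array, and Hoxa13 on APJ knockout replicate 3 alone, by 1 of its 2 probes. Neither Hoxd1 nor Hoxa10 entered the test between genotypes, because neither was well above background throughout a group.

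Hoxc genes, which in the embryo pattern the thoracic to caudal trunk and the hindlimb, were mostly not well above background. Hoxc6 had the widest detection of the cluster, on 2 of 3 wild-type and 3 of 3 knockout arrays, with wild-type signals of -4.70, -2.89 and -3.33 and knockout signals of -3.03, -3.60 and -3.68. Hoxc4 and Hoxc5 were called on wild type replicate 3 alone, and Hoxc9 and Hoxc12 on APJ knockout replicate 3 alone. Hoxc12 read -4.95, -5.67 and -5.30 in wild type and -4.92, -4.65 and -4.36 in the knockout. Its groups did not overlap, but only APJ knockout replicate 3 was well above background, so no bound is given. Hoxc4 read -5.13, -4.76 and -3.71 in wild type and -4.89, -4.54 and -6.04 in the knockout, so the groups overlapped and the slides differed in sign (0.23 on slide 1 and -2.33 on slide 2). The replicate 3 arrays were those of slide 2, where a larger share of all probes was called. Hoxc8, Hoxc10, Hoxc11 and Hoxc13 were called on no array.

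Promoter sequence was available from RefSeq (GRCm38.p6) for 22 of the 38 genes. The 250 bases before the annotated start are shown for Hoxb8, Hoxa5, Hoxb1 and Hoxc4. Hoxb8 and Hoxa5 read higher in the knockout in the results that follow. Hoxb1 and Hoxc4 were not well above background on all arrays. Capitals mark matches to TGATNNAT, a pattern bound by Hox with Pbx, on either strand.
Hoxb8: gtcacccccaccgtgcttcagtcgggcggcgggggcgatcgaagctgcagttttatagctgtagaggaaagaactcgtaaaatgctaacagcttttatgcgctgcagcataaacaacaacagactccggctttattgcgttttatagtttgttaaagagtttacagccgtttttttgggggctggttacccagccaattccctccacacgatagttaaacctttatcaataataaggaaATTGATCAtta
Hoxa5: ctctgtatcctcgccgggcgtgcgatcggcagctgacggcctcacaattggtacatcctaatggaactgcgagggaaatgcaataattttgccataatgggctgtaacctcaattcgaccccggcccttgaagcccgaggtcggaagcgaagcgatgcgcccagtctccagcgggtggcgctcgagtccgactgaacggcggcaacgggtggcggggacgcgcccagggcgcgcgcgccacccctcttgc
Hoxb1: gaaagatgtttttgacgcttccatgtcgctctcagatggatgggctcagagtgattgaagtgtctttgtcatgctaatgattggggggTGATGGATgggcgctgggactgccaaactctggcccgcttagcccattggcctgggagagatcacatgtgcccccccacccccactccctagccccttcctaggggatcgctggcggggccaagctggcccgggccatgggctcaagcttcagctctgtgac
Hoxc4: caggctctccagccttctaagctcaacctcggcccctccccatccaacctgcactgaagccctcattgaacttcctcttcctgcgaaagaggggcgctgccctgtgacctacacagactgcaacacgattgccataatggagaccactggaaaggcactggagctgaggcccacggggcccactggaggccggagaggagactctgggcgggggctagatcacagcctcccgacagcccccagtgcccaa

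These windows lie at chr11:96281655-96281904 (plus strand), chr6:52204588-52204837 (minus strand), chr11:96365508-96365757 (plus strand) and chr15:103034145-103034394 (plus strand), in that order. Hoxb8 and Hoxb1 each hold 1 match to TGATNNAT, Hoxa5 and Hoxc4 none, and the pattern occurs in 7.68% of all 32851 promoter windows of that length. The Hoxb8 window also holds 3 matches to TTTATNG, a pattern bound by Cdx and posterior Hox proteins, which 9.81% of all windows contain, and 2 of TATAAA (12.4%). Overlaps between these patterns were not removed. Hox promoters were rich in CpG: the median ratio of observed to expected CpG was 0.687 over the 13 genes present on all 6 arrays with a window, 0.759 over the 11 windows of the other 9, and 0.374 over all promoters. In the windows shown, the ratio was 0.974 for Hoxb8, 1.11 for Hoxa5, 0.32 for Hoxb1 and 0.34 for Hoxc4. Hoxb1 and Hoxc4 lay below the 0.759 of the genes not present on all arrays, so they do not stand for that group. A match describes the letters in the window and does not show that a factor binds there.

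The comparison between genotypes covered 21 Hox genes, the 20 present on all arrays and Hoxc6, which entered through its knockout arrays. None passed the test over all 24244 genes and unnamed probes (limma, Benjamini-Hochberg, threshold 0.05), in which 0.367% of all features rose and 0.186% fell. At an unadjusted p under 0.05, 7 of the 21 were higher in the knockout and 0 lower, where 4.45% of all features were higher and 3.57% lower. The knockout arrays all lay above the wild-type arrays for 7 of the 21 and below them for 0, against 6.37% and 5.86% of all features. The median log2 difference (knockout minus wild type) was 0.16 over the 21 genes, 16 of them above 0 (76.2%), against -0.02 and 43.6% over everything tested. All of these genes were read on the same 6 arrays and lie side by side in clusters, so they are not separate observations. By position, the median was 0.16 over the 5 tested genes numbered 1 to 3, 0.19 over the 12 numbered 4 to 8 and -0.00 over the 4 numbered 9 to 13. Several macrophage markers were also higher in the knockout (values follow the Hox results), and their part in the Hox values was not tested. Fewer cells of a type and less RNA per cell cannot be told apart in such samples.

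**Figure D2:**
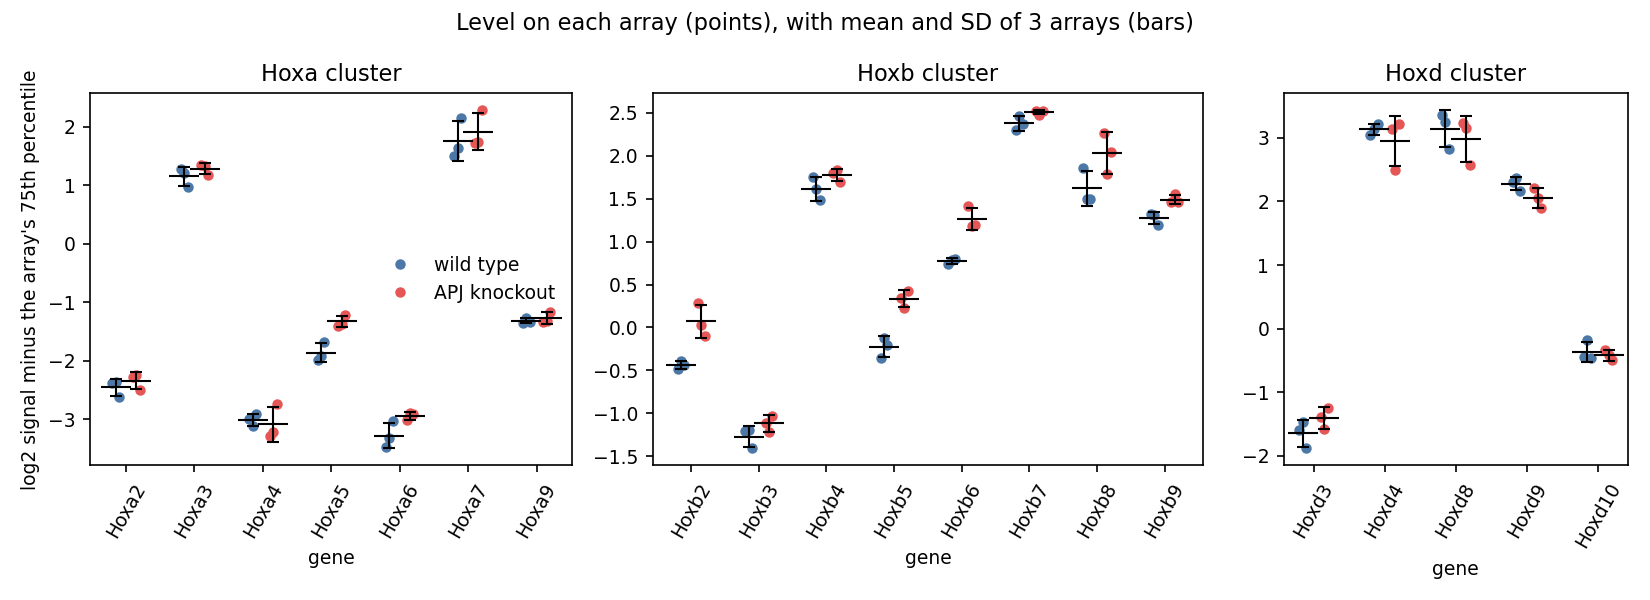
Log2 signal relative to the 75th percentile of each array for the 20 Hox genes present on all 6 arrays, in panels by cluster, each with its own scale. Points are single arrays (blue, wild type; red, APJ knockout), and black bars give the mean and SD of 3 arrays. The knockout arrays of Hoxb2, Hoxb5, Hoxb6 and Hoxa5 all lie above their wild-type arrays, and the Hoxd genes overlap.

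All 8 tested genes of the Hoxb cluster were higher in the knockout on average, by 0.13 to 0.56 on the log2 scale (median 0.31). Groups did not overlap for 5 of the 8, all higher in the knockout, where 6.37% of all features were higher without overlap and 5.86% lower. Hoxb5, a gene of the neck and upper trunk that is known to act in early endothelial specification, read -0.36, -0.12 and -0.20 in wild type and 0.34, 0.23 and 0.43 in the knockout. All knockout arrays were above all wild-type arrays. The difference was 0.56 ± 0.10 (SE, n = 3 per group), a 1.47-fold ratio, and did not pass (limma adjusted p = 0.109). Over the alternative settings it stayed between 0.49 and 0.61, with adjusted p from 0.0678 to 0.552.

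Hoxb6 and Hoxb2 showed the same separation. Hoxb6 read 0.74, 0.78 and 0.80 in wild type and 1.41, 1.18 and 1.19 in the knockout, a difference of 0.49 ± 0.10 (SE, limma adjusted p = 0.125). Hoxb6 wild-type arrays had an SD of 0.03, and the ratio was 1.40-fold. Hoxb2, which acts in the hindbrain and neural crest, read -0.49, -0.39 and -0.44 in wild type and 0.28, 0.03 and -0.10 in the knockout. Its difference was 0.51 ± 0.12 (SE, limma adjusted p = 0.184), a 1.42-fold ratio.

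Hoxb9 and Hoxb7 differed by less, also without overlap. For Hoxb9, the last Hoxb gene present, wild type read 1.32, 1.31 and 1.19 and the knockout 1.46, 1.55 and 1.46, a difference of 0.22 ± 0.09 (SE, limma adjusted p = 0.575). For Hoxb7 the arrays read 2.30, 2.47 and 2.37 against 2.52, 2.48 and 2.52, so that the highest wild-type array came within 0.01 of the lowest knockout array, for a difference of 0.13 (limma adjusted p = 0.963). Hoxb8 read 1.86, 1.50 and 1.50 in wild type and 2.27, 1.79 and 2.04 in the knockout, where replicate 2 fell below wild type replicate 1. Its difference was 0.41 ± 0.16 (SE, limma adjusted p = 0.576). Hoxb3 and Hoxb4 differed by 0.16 and 0.17 with overlapping groups. The other Hoxb3 probe gave 0.19.

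In the Hoxa cluster Hoxa5 and Hoxa6 had groups that did not overlap. Hoxa5, which in endothelium is known as a brake on vessel sprouting, read -1.99, -1.92 and -1.68 in wild type and -1.40, -1.37 and -1.22 in the knockout. The groups did not overlap, and the array of slide 2 was the highest in each. The difference was 0.53 ± 0.11 (SE, n = 3 per group, limma adjusted p = 0.149), a 1.45-fold ratio. With the slide as a block Hoxa5 passed (limma adjusted p = 0.0365, against up to 0.675 under the other settings), as the 1 Hox gene of 21 in a fit in which 0.763% of all features rose and 0.417% fell. With the replicate number as a block none of the 21 passed, where 0.0165% of all features rose and 0.00412% fell.

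Hoxa6 read -3.47, -3.33 and -3.04 in wild type and -3.02, -2.90 and -2.92 in the knockout. The nearest arrays of the groups were 0.02 apart, and the difference was 0.33 ± 0.13 (SE, limma adjusted p = 0.566). Hoxa2, Hoxa3, Hoxa7 and Hoxa9, the last of these a gene known to promote endothelial maturation and migration, differed by 0.12, 0.12, 0.15 and 0.05 with overlapping groups. Hoxa4 differed by -0.07. For Hoxa7 the spread followed the slide: wild type read 1.50, 1.63 and 2.15 and the knockout 1.72, 1.74 and 2.28, the last of each being the array of slide 2. Both Hoxa9 probes were present on all arrays and gave 0.05 and 0.11. Over the 7 tested Hoxa genes the median difference was 0.12, and leaving out wild type replicate 3 gave 0.04 and leaving out APJ knockout replicate 3 gave 0.18.

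The tested genes of the Hoxd cluster did not follow that direction. Of these 5 genes 4 were lower in the knockout on average, the median was -0.16, and all had overlapping groups. Hoxd1, higher in the knockout without overlap, is not among the 5 because it did not enter the test. Hoxd9 read 2.30, 2.36 and 2.16 in wild type and 2.21, 2.05 and 1.90 in the knockout, a difference of -0.22 ± 0.11 (SE, limma adjusted p = 0.797). Hoxd8 differed by -0.16 and Hoxd10 by -0.05. In Hoxd4 a single array carried the difference of -0.18: APJ knockout replicate 2 read 2.50, while the other arrays lay between 3.04 and 3.21, and without it the difference was 0.04. Hoxd3, a gene known to move endothelial cells from a resting to an invasive state, was higher by 0.24 ± 0.14 (SE, limma adjusted p = 0.889), 0.05 on slide 1 and 0.64 on slide 2. The cluster median was -0.01 without APJ knockout replicate 3, -0.05 without APJ knockout replicate 2 and -0.28 without APJ knockout replicate 1. Whether the clusters differed from each other was not tested. Hoxc6 differed by 0.21 ± 0.46 (SE), too imprecise to give a direction, and by -0.32 without wild type replicate 1.

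The annotated spans of Hoxa3 overlap those of Hoxa4, Hoxa5 and Hoxa6, that of Hoxb3 overlaps Hoxb4, Hoxd3 overlaps Hoxd4, and Hoxd10 overlaps Hoxd11. Probe positions against these shared stretches were not used here, so a signal from such a pair may not belong to 1 gene alone.

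**Figure D3:**
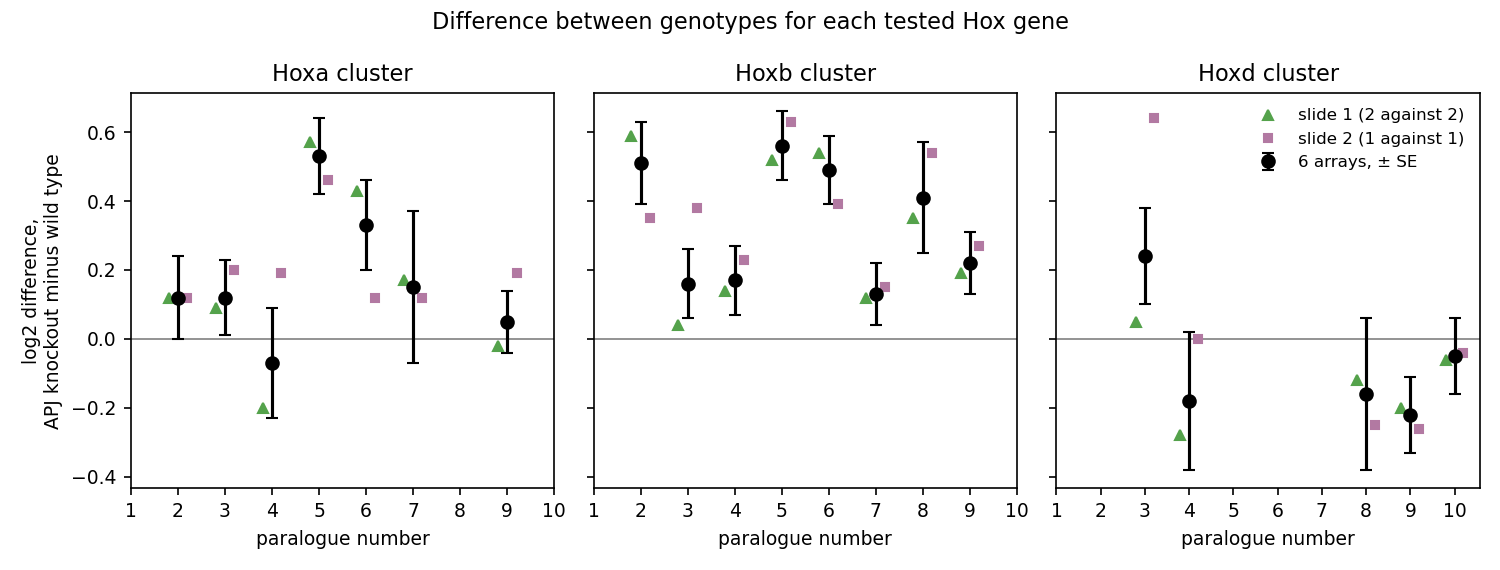
Log2 difference (APJ knockout minus wild type) of the 20 Hox genes present on all arrays, against paralogue number, in panels by cluster. Black points with bars are the fit to 6 arrays ± SE, green triangles slide 1 (2 arrays against 2) and purple squares slide 2 (1 against 1). All 8 Hoxb genes are above 0 on both slides, while 4 of 5 Hoxd genes are below 0.

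Each slide held both genotypes, so the differences could be taken within it. All 8 Hoxb genes were above 0 on slide 1 and on slide 2, with a median of 0.27 on slide 1 and 0.37 on slide 2. For Hoxb5 the values were 0.52 and 0.63, for Hoxb6 0.54 and 0.39, for Hoxb2 0.59 and 0.35, and for Hoxa5 0.57 and 0.46. In the Hoxa cluster 5 of 7 genes were above 0 on both slides, with medians of 0.12 and 0.19. In the Hoxd cluster 4 of 5 were below 0 on both, with medians of -0.12 and -0.04, although Hoxd4 on slide 2 was at -0.00. Averaged over the 8 Hoxb genes, each array's distance from the gene's mean over all arrays was -0.14, -0.13 and -0.22 in wild type and 0.24, 0.10 and 0.15 in the knockout. The Hoxb median stayed between 0.26 and 0.37 with any 1 array left out. An exact two-sided permutation test cannot go below p = 0.1 with 3 arrays against 3, and Hoxb2, Hoxb5, Hoxb6, Hoxb7, Hoxb9, Hoxa5 and Hoxa6 were all at that value.

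Genes next to the clusters had medians near 0, and whether they differed from the Hox genes was not tested. The 40 tested named genes nearest the Hoxb cluster, 20 on each side in gene order, had a median difference of -0.03, with 16 above 0 and 24 below, and none passed (limma). The nearest on each side were Atp5g1, a subunit of ATP synthase, and Skap1, an adaptor of T cells. They differed by -0.10 ± 0.15 and -0.24 ± 0.68 (SE), with overlapping groups. Further out, Itga3, an integrin subunit that binds laminin, was higher by 0.74 ± 0.11 (SE, limma adjusted p = 0.0583), and passed once slide was a block (0.0236, against 0.12 to 0.226 with 1 array left out). The 39 neighbours of Hoxa had a median of -0.00, the 29 of Hoxc -0.02 and the 40 of Hoxd -0.01, and none of these passed. At an unadjusted p under 0.05 (limma), 4 neighbours of Hoxa were higher and 1 lower, and 2 and 2 of Hoxb. The counts were 0 and 0 for Hoxc and 1 and 1 for Hoxd, where 4.45% of all features were higher and 3.57% lower. Groups without overlap numbered, higher and lower, 6 and 2 for Hoxa and 5 and 5 for Hoxb. For Hoxc they numbered 0 and 0 and for Hoxd 1 and 2, against 6.37% and 5.86% of all features. Near Hoxa, Tril was higher by 0.49 and Aqp1 by 0.87 (limma adjusted p = 0.109 and 0.113). The neighbours were chosen after the Hox values were seen.

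**Figure D4:**
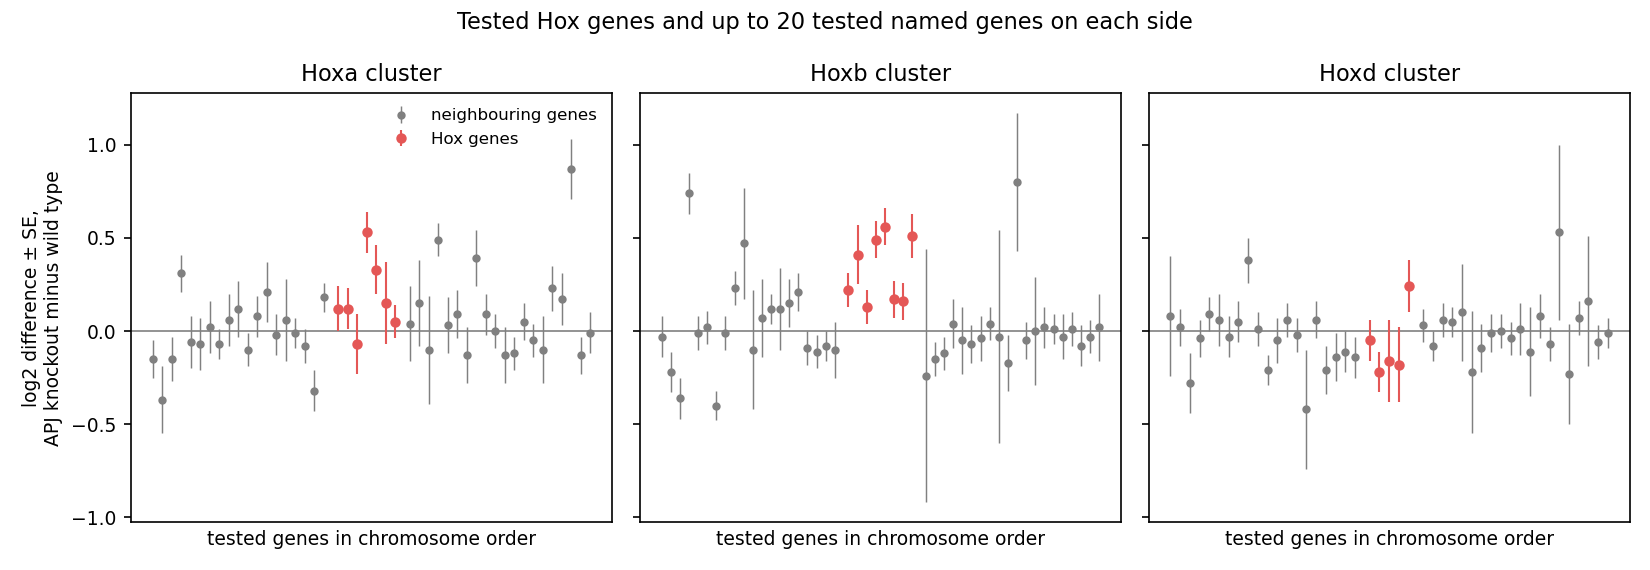
Log2 difference ± SE (APJ knockout minus wild type) of tested Hox genes (red, in order of paralogue number) and of up to 20 tested named genes on each side (grey, in gene order along the chromosome), for the Hoxa, Hoxb and Hoxd clusters. The 8 Hoxb genes sit between 0.13 and 0.56, and the median of their 40 neighbours is -0.03.

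The machinery that works with or on Hox genes was largely present, and none of it passed the test. Of the cofactors, 7 of 9 were tested and none passed, with a median difference of 0.06. Meis2, a partner of Hox proteins, differed by 0.28 and Pbx3 by 0.19, both with overlapping groups. Of 23 Polycomb and trithorax regulators 21 were tested and none passed. Their median difference was -0.00. Cbx2, a reader of Polycomb marks, differed by -0.18 and Ezh2, the Polycomb methyltransferase, by -0.10, both with overlapping groups. No Cdx or ParaHox gene, of 6 on the array, was tested, since none was well above background throughout a group. Of 16 noncoding RNAs of the clusters only Hoxd3os1 and Hoxa11os were matched to probes, and they differed by -0.18 and -0.16 without passing. Hoxa11os was well above background on all 6 arrays while Hoxa11, which lies on the opposite strand, was on none. In a list of 14 further genes around the clusters 9 were tested and none passed, with a median of -0.06. Snx10, a sorting nexin near Hoxa, was lowest at -0.32 ± 0.11 (SE, limma adjusted p = 0.497). Skap2, which lies between Snx10 and Hoxa, was higher by 0.18 ± 0.08 (SE, limma adjusted p = 0.697). Neither gene had overlapping groups.

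Retinoic acid is a known inducer of low-numbered Hox genes, most strongly in the embryo. Of 18 genes of its pathway 14 were tested and none passed, the median being 0.13 with 10 above 0. Cyp26b1, which degrades retinoic acid, was higher by 0.43 ± 0.16 and Dhrs3, a retinal reductase, by 0.35 ± 0.13 (SE, limma adjusted p = 0.538 and 0.545). The groups of Cyp26b1 and of Dhrs3 did not overlap.

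Among other transcription factors of position, 3 of 12 were tested and 1 passed. Pax1, a gene of the sclerotome and shoulder girdle, was at least 1.72-fold higher in the knockout, being well above background on 3 of 3 knockout arrays and 0 of 3 wild-type arrays (limma adjusted p = 0.0398). It entered the test only through the knockout arrays, where it is high, so that p and the count of 1 in 3 support nothing beyond the bound. Its 10 replicate spots averaged -4.95, -5.41 and -5.54 in wild type and -4.07, -4.08 and -3.79 in the knockout. Of 13 homeobox genes outside the clusters 12 were tested, with a median of -0.02, and 1 fell. Zfhx3, a zinc finger and homeobox protein, read 1.17, 1.15 and 1.09 in wild type and 0.30, 0.37 and 0.33 in the knockout, a difference of -0.81 ± 0.08 (SE, limma adjusted p = 0.0206). Msx1, a gene of mesenchyme, differed by -0.48 and Prox1, the determinant of lymphatic endothelium, by 0.80 ± 0.20 (SE, limma adjusted p = 0.228 and 0.235), both without overlap. With the replicate number as a block the calls of Pax1 (0.121) and Zfhx3 (0.0737) were lost, and with 1 array left out Pax1 passed in 1 of 6 fits, that without wild type replicate 1, and Zfhx3 in 0 (0.0569 to 0.129).

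Markers of other skin cells were present and varied between arrays and genotypes. Of 12 tested macrophage markers 11 were above 0, with a median of 0.43, though none passed after adjustment. At an unadjusted p under 0.05 (limma), 7 were higher and 0 lower, where 4.45% of all features were higher and 3.57% lower. The differences were 1.83 for Lyz2, which encodes lysozyme, 1.79, 0.48 and 1.91 for the complement subunits C1qa, C1qb and C1qc, and 1.11 for Aif1, all without overlap and higher in the knockout on both slides. Lyz2, C1qa, C1qc and Adgre1 were well above background on 1, 2, 2 and 1 of the 3 wild-type arrays and on all 3 knockout arrays. They entered the test only through the knockout arrays, where they are high. Their p-values, also in blocked fits, and their place among the 7 therefore support nothing. Aif1 passed with a slide block (limma adjusted p = 0.024) and C1qa with a replicate block (0.0428), against 0.253 and 0.122 without. Csf1r and Mrc1, other macrophage genes, differed by -0.23 and 0.06 with overlap. Of 8 tested keratinocyte markers 0 were above 0, with a median of -1.30 (-0.25 on slide 1 and -3.22 on slide 2). Well above background on all 6 arrays were 7 of 14 keratinocyte, 8 of 12 macrophage, 7 of 14 dermal fibroblast, 6 of 10 mural, 3 of 10 skeletal muscle, 6 of 15 melanocyte, Schwann cell and neuron, and 6 of 8 erythroid markers. Summed linear signals of 14 keratinocyte markers ran from 10.4 to 37.4 times the 75th percentile in wild type, with the maximum in replicate 3, and from 10.6 to 11.6 in the knockout. For 12 macrophage markers the ranges were 12.7 to 23.9 and 14.2 to 21.7, a sum that bright probes weigh most in, and for 14 dermal fibroblast markers, cells that carry strong positional Hox patterns, 7.35 to 9.6 and 6.84 to 11. Of the fibroblast markers Dpt and En1 were well above background on no array, and of 10 mural cell markers (3.39 to 4.36 and 3.61 to 4.36) Myh11 and Des. Skeletal muscle markers lay at 2.97 to 3.85 and 2.91 to 3.77 with Myod1, Myog and Myf5 on no array, and 8 erythroid markers at 330 to 578 and 350 to 605. Melanocyte, Schwann cell and neuron markers lay at 2.52 to 3.89 and 2.50 to 3.63, with Foxd3, Erbb3 and Isl1 among those on no array. Without wild type replicate 3, the array with the most keratinocyte signal, the Hoxb median was 0.26 and no Hox gene passed. The part of the other cells in the Hox values was not tested.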

How the data were processed

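RNA was measured on 6 one-colour Agilent arrays, and 0.1 µg per sample was labelled with Cy3, per the labels' protocols. The deposited scanner files give a linear intensity per spot, written by Agilent Feature Extraction 10.7.3.1, background-subtracted and detrended within the array per the file headers, and not normalised between arrays. In the deposited value table each array's intensity is multiplied by 1 constant, whose origin is not stated. Group and replicate number came from the sample titles.

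Of 59305 spots per array that were not controls, 126 to 179 marked as outliers were left out, and none was saturated. The 75th percentile was subtracted on the log2 scale from the deposited intensities, and spots of 1 probe were averaged. A probe counted as well above background if at least 50% of its spots were. Symbols came from RefSeq (GRCm38.p6) by accession without version, for 97.73% of 27016 curated probes, and gave names and gene order only. Tested features were those well above background throughout at least 1 group. The linear model used R 4.3.3 with limma 3.58.1 over 24244 features, 13450 of them named, with genotype as the only term, and the fit was tested on simulated data.

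Same-numbered arrays of both genotypes deviated together (correlations of 0.23, 0.15 and 0.65), so blocked fits are given where they change a call. The numbers are not independent of the slide, and wild type replicate 1 correlated more with APJ knockout replicate 2 (0.36). The files held no mean spot signal, so normexp with an offset of 50 used the median signals, an alternative chosen after seeing the data. The members and lists were chosen with earlier results of these data known. Values of each array are given for Hox genes past the threshold or without overlap, for those detected in full in only 1 group, and for the 8 with the smallest p. Up to 3 genes of each other list and all that passed are named, and other genes named were chosen after their values were seen. Some results of these lists are not reported here.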

Additional observations from a re-analysis of the deposited data

How the results depend on the processing

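Of 335 values for the 21 tested Hox genes under the alternatives, 326 kept their direction and their side of the threshold, 1 gained a call and 8 changed sign, none of these 8 in a gene that passed. The number of Hox genes called higher was 1 (Hoxa5) under the slide block and 0 elsewhere, and the number called lower was 0 throughout. The median Hox difference ran from 0.12 to 0.20 with 1 array left out. Sign changes, all in genes that did not pass, came with normexp (Hoxa4, 0.00) and with 1 array left out. The ranges over those fits were -0.24 to 0.03 for Hoxa4 (positive without APJ knockout replicate 1), -0.03 to 0.35 for Hoxa7, -0.01 to 0.08 for Hoxa9 and -0.32 to 0.05 for Hoxd8 (these 3 turned without APJ knockout replicate 3), -0.32 to 0.58 for Hoxc6 (wild type replicate 1), -0.32 to 0.04 for Hoxd4 (APJ knockout replicate 2) and -0.10 to 0.04 for Hoxd10 (wild type replicate 2). Over all features, 89 rose and 45 fell. These counts were 185 and 101 under the slide block and 142 and 68 under array weights. They were 3 and 0 with no filter on dim probes, where more features were tested. With the replicate block they were 4 and 1, and no call of a Hox gene changed. With 1 array left out 11 to 45 rose and 1 to 27 fell. The causes of these changes were not tested. By the less strict positive-and-significant call 27 Hox genes were present on all arrays, against 20. The added genes were Hoxa10, Hoxd1, Hoxd11, Hoxc4, Hoxc5, Hoxc6 and Hoxc12, so the pattern of detection by cluster depends on the call. Genes at the floor of the arrays, which include most Hoxc and high-numbered genes, have no measurable difference here.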
